A study of Mus musculus with 38 samples.

Results

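Lcn2, Saa1, Saa2 and Saa3 were followed through a mouse colitis experiment. They are the 4 rows, of 46078 gene identifiers counted, whose gene name is one of these symbols. RNA was sequenced from isolated intestinal epithelial cells of C57BL/6 mice, and the series text also speaks of colon tissue. The colitis agent was DSS (dextran sodium sulfate) at 1.5%, a polymer that injures the colonic lining, given to male mice 10 to 12 weeks old. KO animals, called Hk2dIEC in the labels, carried floxed Hk2 alleles and Cre under the Villin promoter, which is active throughout the intestinal epithelium. WT animals were littermates with floxed Hk2 alleles, so the floxed alleles were shared by both genotypes. Day 0, before DSS, has 4 WT and 5 KO libraries. Day 3 has 7 WT and 8 KO libraries, and day 7 has 7 of each. The age of the day 0 animals is given only as a choice: basal mice of the study were aged either 9 to 11 weeks or 86 to 92 weeks. Each library is named by day, genotype and animal number, as in d7_KO_420.

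The 38 libraries held 10.5 to 60.6 M (mega) counts each (median 43.2 M). All day 0 libraries carry another name series than those of days 3 and 7, so a difference from day 0 and a difference between library series cannot be told apart. The same holds for age if the day 0 animals were those aged 86 to 92 weeks. Both limits apply to every comparison with day 0 below. Hk2, the targeted gene, was at 76.4 ± 31.8 CPM (counts per M total counts, scaled by TMM, a correction for library composition; SD, n = 5) in KO day 0 and at 347 ± 90.6 CPM (SD, n = 4) in WT day 0. In KO day 3 it was at 68.4 to 128 CPM in 7 libraries and at 435 CPM in the library labelled d3_KO_345, which goes against its label. WT day 3 libraries were at 97 to 220 CPM, so the genotypes overlapped on day 3 apart from that library too. Hk2 on day 7 was at 140 ± 71.5 CPM in KO and 332 ± 127 CPM in WT (SD, n = 7 each). The library labelled d7_KO_420, at 268 CPM, lay within the WT day 7 range of 228 to 611 CPM, and the other KO day 7 libraries were at 56.1 to 194 CPM. The 8 epithelial markers, such as Epcam and Krt8, summed to 9491 to 19080 CPM in the 38 libraries, so markers of the labelled cell type were abundant. Neutrophil and macrophage markers were present too, and their levels are given beside the results they move with.

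Lcn2 encodes lipocalin 2, a secreted protein that captures bacterial siderophores and so withholds iron from bacteria. It is made by neutrophils and by inflamed epithelium, and its protein in stool is widely used to follow mouse colitis. The serum amyloid A genes encode small acute phase apolipoproteins. Saa1 and Saa2 are the classical liver-induced pair and are also made by gut epithelium in contact with certain bacteria, while Saa3 is mainly made outside the liver, for example in epithelium and macrophages. Cytokines that signal through STAT3, C/EBP and NF-kB factors are known inducers of the whole group.

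Lcn2 (ENSMUSG00000026822) spans chr2:32384633-32388252 on the minus strand of GRCm38. The other members lie together on chromosome 7, in the order Saa3 (ENSMUSG00000040026, chr7:46711998-46715676, minus), Saa1 (ENSMUSG00000074115, chr7:46740501-46742980, minus) and Saa2 (ENSMUSG00000057465, chr7:46751833-46754314, plus). Saa4, the constitutive family member, lies between Saa3 and Saa1. The 4 amyloid genes together span 42317 bases, and Saa1 and Saa2 face away from each other with 8852 bases between them. All 4 members are annotated as protein coding, and no other annotated gene overlaps any of them.

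The 250 bases before each RefSeq gene start (GRCm38.p6) are shown because these genes changed together in part of the experiment, and because they show how alike Saa1 and Saa2 are. Capitals in the first set mark matches, on either strand, to TTGCNNAA (a C/EBP-type motif) and to GGG followed after 5 bases of any kind by CC (an NF-kB-type motif). The windows are chr2:32387740-32387989 (minus) for Lcn2, chr7:46742981-46743230 (minus) for Saa1, chr7:46751583-46751832 (plus) for Saa2 and chr7:46715677-46715926 (minus) for Saa3. The Lcn2 window lies inside the gene span given above, since the counted gene model starts further upstream than the RefSeq start.
Lcn2: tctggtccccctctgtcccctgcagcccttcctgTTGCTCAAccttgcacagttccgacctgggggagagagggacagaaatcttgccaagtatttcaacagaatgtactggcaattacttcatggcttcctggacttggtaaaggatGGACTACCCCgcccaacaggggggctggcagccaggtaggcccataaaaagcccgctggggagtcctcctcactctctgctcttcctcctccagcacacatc
Saa1: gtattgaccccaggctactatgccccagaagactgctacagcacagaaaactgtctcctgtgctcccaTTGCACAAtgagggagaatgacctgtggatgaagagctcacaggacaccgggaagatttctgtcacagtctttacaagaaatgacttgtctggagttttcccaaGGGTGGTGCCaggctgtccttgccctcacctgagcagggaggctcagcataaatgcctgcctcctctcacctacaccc
Saa2: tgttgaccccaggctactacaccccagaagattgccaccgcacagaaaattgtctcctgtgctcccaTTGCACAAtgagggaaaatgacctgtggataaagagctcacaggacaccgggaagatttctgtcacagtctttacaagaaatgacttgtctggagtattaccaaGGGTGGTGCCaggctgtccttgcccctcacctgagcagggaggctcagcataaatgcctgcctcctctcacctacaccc
Saa3: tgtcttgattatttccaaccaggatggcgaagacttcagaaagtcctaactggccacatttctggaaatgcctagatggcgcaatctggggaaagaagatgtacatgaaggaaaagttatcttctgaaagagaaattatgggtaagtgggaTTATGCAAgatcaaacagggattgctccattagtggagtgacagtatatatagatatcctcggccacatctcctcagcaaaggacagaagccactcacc
TTGCNNAA was found in all 4 windows, at 216 to 209 bases before the start in Lcn2, 182 to 175 in Saa1, 183 to 176 in Saa2 and 99 to 92 in Saa3. Of 32851 promoters of the same length, 9.56% hold it. The NF-kB-type motif was found in Lcn2, Saa1 and Saa2, and 45.8% of promoters hold it. TTCNNNGAA, a STAT-type motif present in 7.02% of promoters, and TATAAA, present in 12.4%, matched in none of the 4 windows. No match of 1 motif overlapped a match of another. These matches describe the letters only and are not evidence of binding.

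Saa1 and Saa2 are near-copies, which limits how their counts can be read. Their 250-base windows were identical at 238 of 251 aligned positions (94.8%), against 48.5% for Saa1 with Saa3 and 46.2% for Lcn2 with Saa3. Capitals below mark the bases at which the Saa1 and Saa2 windows differ.
Saa1: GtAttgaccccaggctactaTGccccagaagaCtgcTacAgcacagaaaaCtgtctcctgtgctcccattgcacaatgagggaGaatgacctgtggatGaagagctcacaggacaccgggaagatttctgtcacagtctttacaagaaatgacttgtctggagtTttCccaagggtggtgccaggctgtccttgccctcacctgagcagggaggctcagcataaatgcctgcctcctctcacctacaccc
Saa2: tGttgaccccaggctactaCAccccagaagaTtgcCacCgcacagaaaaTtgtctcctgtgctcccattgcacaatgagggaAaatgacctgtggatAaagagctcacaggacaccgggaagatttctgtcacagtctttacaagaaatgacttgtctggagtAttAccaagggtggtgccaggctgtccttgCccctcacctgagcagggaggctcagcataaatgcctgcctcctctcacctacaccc
The coding transcripts nearest in length to the counted models, 609 bases for Saa1 and 606 for Saa2, were identical at 93.9% of aligned positions, while Saa1 and Saa3 shared 62.2%. Of the 50-base stretches in the Saa1 transcript, as long as 1 read, 14.8% also occur in Saa2 or Saa3. The share was 13.3% for Saa2, 1.78% for Saa3 and 0% for Lcn2. Counts of Saa1 and Saa2 are therefore uncertain to the extent that reads from such stretches were discarded or misplaced.

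Before colitis, Saa1 was by far the most abundant member. Its level in WT day 0 was 232, 364, 402 and 532 CPM, a mean of 382 ± 123 CPM (SD, n = 4). KO day 0 libraries were at 98.8, 194, 212 and 242 CPM, and d0_KO_60 lay above these at 3.7 times the lowest, for a mean of 223 ± 96.5 CPM (SD, n = 5). Ranked by mean CPM per kilobase of exon, Saa1 stood at rank 43 among 27623 genes above 0 in WT day 0 and at rank 93 among 26093 in KO day 0. Saa1 was thus among the highly expressed genes of these epithelial cells before any DSS.

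Lcn2 was close to the limit of detection on day 0. Its counts were 1, 2, 6 and 6 in the 4 WT libraries and 0, 0, 1, 1 and 3 in the 5 KO libraries. The summed counts of 15 and 5 correspond to 0.16 CPM (95% exact Poisson interval 0.0896 to 0.264) and 0.0733 CPM (0.0238 to 0.171), intervals that cover counting error only. A count of 0 in d0_KO_24 allows a level of up to 0.191 CPM, taken as 3 counts. The WT and KO values overlapped at this depth, and Lcn2 was too low to be tested there.

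Saa3 was low but counted in every day 0 library. It was at 0.725, 0.923, 0.969 and 1.23 CPM in WT and at 0.704, 1.08, 1.19, 1.63 and 1.87 CPM in KO. Saa2 was at 0.121, 0.283, 0.29 and 0.308 CPM in WT day 0, from 2 to 15 counts. In KO day 0 it was at 0.0961, 0.125, 0.318, 1.41 and 4.07 CPM, from 1 to 41 counts. The highest values belong to d0_KO_32 and d0_KO_60, while the other 3 KO libraries lay in or near the WT range.

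The library with the most Saa2, d0_KO_60, also had the most of certain small intestine markers. Apoa1, an apolipoprotein of small intestine and liver, was at 75 CPM and Fabp6, an ileal bile acid binding protein, at 43.1 CPM, against 0.145 to 18.6 CPM and 1.25 to 7.42 CPM in the other day 0 libraries. The sum of 8 small intestine markers was 1115 CPM in d0_KO_60, 684 to 985 CPM in the other KO day 0 libraries and 493.2 to 946 CPM in WT day 0. In d0_KO_32, the other library with high Saa2, Apoa1 was at 1.06 CPM and Fabp6 at 3.75 CPM. The part of small intestinal cells in the Saa2 values was not tested.

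**Figure D1:**
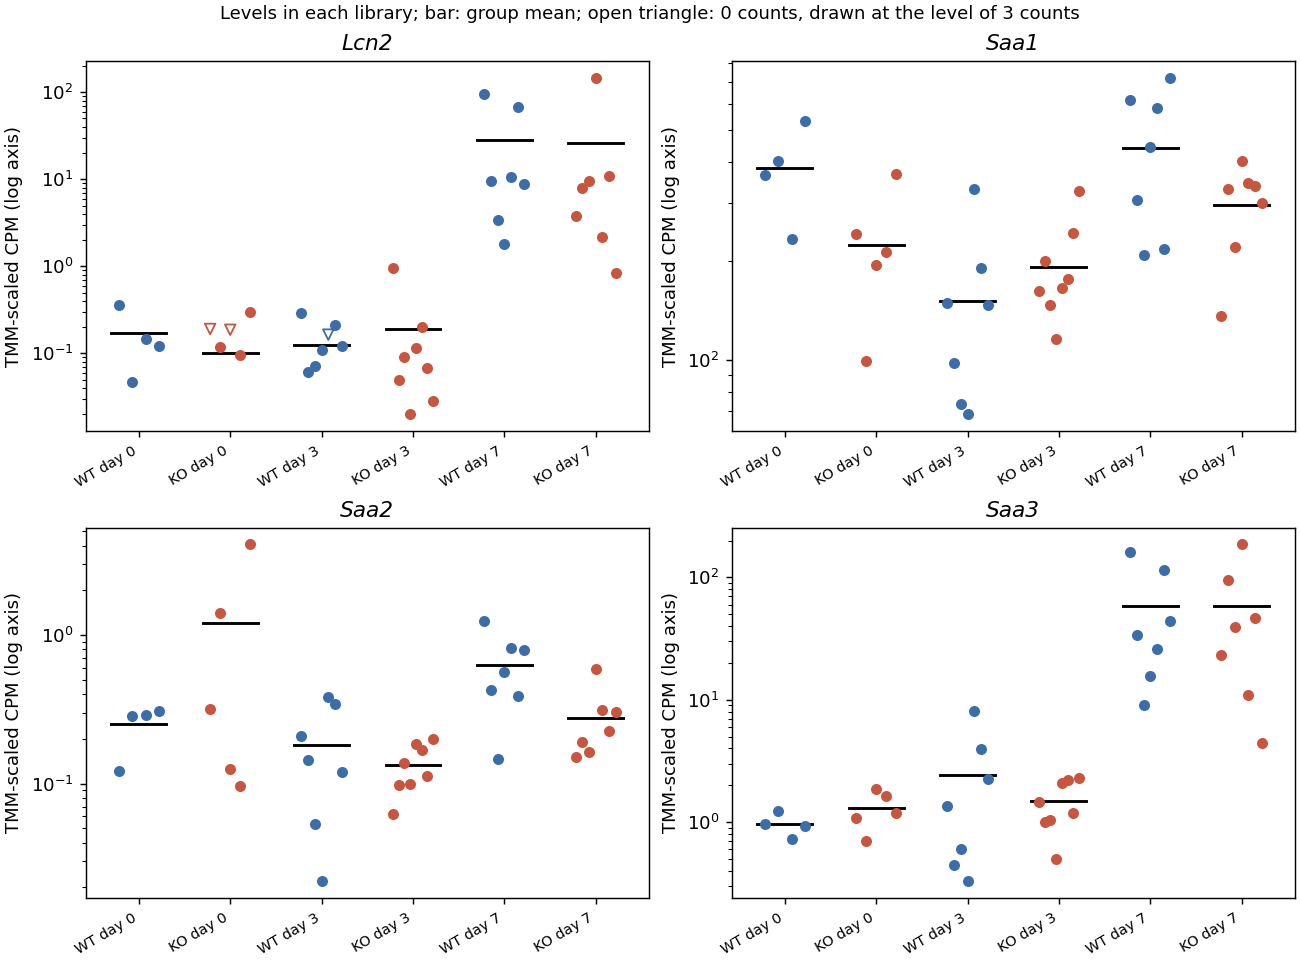
Level of each member in every library, as TMM-scaled CPM on a log axis, by genotype and day. Points are single libraries, bars are group means, and open triangles are libraries with 0 counts drawn at the level of 3 counts; Lcn2 and Saa3 are high only on day 7, while Saa1 is high in all groups.

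On day 3 of DSS, Saa1 was lower than on day 0 in WT, and no member tested was called higher in either genotype. Lcn2 was too low to be tested in either, and Saa2 in KO. Saa1 in WT day 3 was at 68.2 CPM at the lowest, 146 CPM at the median and 330 CPM at the highest (d3_WT_381), so 1 library reached into the day 0 range. The log2 fold change in WT was -1.35 (SE 0.37, adjusted p = 0.00898, edgeR), and 46% of 17152 genes tested were called in that comparison, with 25.6% of the genes tested called lower. Saa1 was the only 1 of 3 members tested that was called. With each library left out in turn the change stayed between -1.66 and -1.16, and it was called in all 11 fits.

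In KO, Saa1 was at 115 to 325 CPM on day 3, overlapping the day 0 values, with a log2 fold change of -0.21 (SE 0.27, 95% interval -0.78 to 0.36, adjusted p = 0.554). Neither Saa1 nor Saa3, the 2 members tested, was called in KO, where 46.3% of 16010 genes were. Saa3 changed by 1.27 (SE 0.79, adjusted p = 0.204) in WT and 0.17 (SE 0.36, adjusted p = 0.724) in KO. The WT day 3 libraries were spread from 0.331 to 8.06 CPM for Saa3, and d3_WT_381, the library highest in Saa1, was also highest in Saa3. The KO day 3 libraries were closer together, at 0.499 to 2.31 CPM. The sum of 8 small intestine markers was 1563 CPM in d3_WT_381, the highest of all 38 libraries. No other day 3 library exceeded 744 CPM. Its sum of 6 colon markers, 11420 CPM, was also the highest of day 3. Apoa1 was at 0.548 CPM and Fabp6 at 7.73 CPM in d3_WT_381, both below their levels in d3_KO_385. Whether small intestinal cells add to the Saa1 and Saa3 of d3_WT_381 was not tested.

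Lcn2 on day 3 was still near its floor, with 0 to 14 counts and at most 0.293 CPM in the WT libraries. In KO it was at 0.02 to 0.201 CPM in 7 libraries and at 0.956 CPM (46 counts) in the library labelled d3_KO_345. The latter was the highest of all 24 libraries of days 0 and 3. The same library had a neutrophil marker sum of 181 CPM, against 18.3 to 58.7 CPM in the other KO day 3 libraries, and a macrophage marker sum of 93.1 CPM against 11.4 to 28.1 CPM. What part these cells have in its Lcn2 was not tested.

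Between day 3 and day 7, Lcn2 and Saa3 rose steeply in both genotypes. All 4 members were called higher in WT, where 19.3% of 15541 tested genes were called in either direction and 10.6% were called higher. In KO, 2 of the 3 members tested were called higher, where 19.3% of 15568 genes were called in either direction and 10.5% were called higher. Lcn2, and Saa2 in WT, were too low to be tested within day 3 and entered through their day 7 counts. The median log2 fold change was 3.24 over the 4 members in WT and 5.26 over the 3 tested in KO, while over all genes tested it was 0.01 and -0.01.

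Lcn2 in WT day 7 was at 1.79, 3.42, 8.77, 9.66, 10.6, 66.8 and 96.5 CPM, with a median of 9.66 CPM. No WT day 3 library came near these values, and the groups did not overlap. The log2 fold change was 7.66 (SE 1.02, adjusted p = 0.000137), and the summed counts, 8955 against 44, gave a ratio of 203 (95% counting interval 151 to 279). In KO day 7 Lcn2 was at 0.845, 2.2, 3.8, 8.04, 9.51, 10.8 and 146 CPM. The KO groups overlapped only through the library labelled d3_KO_345, whose 0.956 CPM exceeds the 0.845 CPM of d7_KO_423. The log2 fold change in KO was 6.95 (SE 1.19, adjusted p = 0.000648).

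The size of the Lcn2 change in KO rested in part on single libraries, although it was called in each of 15 fits without 1 library. It was 4.85 without the library labelled d7_KO_420, whose Hk2 lay within the WT range, and 8.27 without the library labelled d3_KO_345, and the DESeq2 Wald test gave 4.76. Within a group, day 7 libraries differed by up to 54.1-fold in WT and 173-fold in KO. Despite its rise, Lcn2 reached only rank 4478 of 26998 genes by mean CPM per kilobase in WT day 7 and rank 4803 of 27207 in KO day 7. Per-kilobase levels of Lcn2 are low estimates, since its counted exon model is 2623 bases long, against 915 bases for its coding transcript.

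Saa3 in WT day 7 was at 9.1, 15.7, 26.1, 33.8, 44.3, 115 and 160 CPM, all above the 8.06 CPM of the highest WT day 3 library. Its log2 fold change was 4.65 (SE 0.81, adjusted p = 0.00101). KO day 7 libraries were at 4.45, 11, 23.4, 39.4, 46.5, 96 and 186 CPM, again without overlap with day 3, and the log2 fold change was 5.26 (SE 0.68, adjusted p = 7.71e-05). By mean CPM per kilobase Saa3 moved from rank 7390 in WT day 3 to rank 464 in WT day 7. In KO it moved from rank 8873 to rank 424. On day 7 Saa3 thus ranked above Lcn2 in both genotypes.

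Saa1 also rose in WT between days 3 and 7, from a higher start than Lcn2 and Saa3 and by a smaller factor. It was at 208, 217, 307, 442, 581, 616 and 720 CPM in WT day 7, and the log2 fold change was 1.53 (SE 0.37, adjusted p = 0.00943). The groups overlapped through d3_WT_381, whose 330 CPM exceeds the 3 lowest day 7 values. In KO day 7 Saa1 was at 136, 220, 300, 330, 337, 344 and 402 CPM, with 3 libraries within and 4 above the KO day 3 range. The change in KO was 0.58 (SE 0.23, 95% interval 0.1 to 1.06, adjusted p = 0.0885) and was not called. It was called without d7_KO_366 (0.71, adjusted p = 0.0206) and without d3_KO_392 (0.74, adjusted p = 0.021).

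Saa2 stayed about 3 orders of magnitude below Saa1. It was at 0.147 to 1.24 CPM in WT day 7, from 8 to 56 counts, and at 0.0221 to 0.384 CPM in WT day 3, from 1 to 18 counts. The log2 fold change in WT was 1.83 (SE 0.51, adjusted p = 0.0201), and without d7_WT_356 it was 1.57 with adjusted p = 0.0516. In KO the summed Saa2 counts were 87 on day 7 and 43 on day 3, a ratio of 1.98 (95% counting interval 1.36 to 2.93), and Saa2 was too low there to be tested. Per kilobase, Saa1 was 499 to 3114 times Saa2 in all libraries of days 3 and 7, and only 70.8 and 90.7 times in d0_KO_32 and d0_KO_60. Whether some of the Saa2 counts are misplaced Saa1 reads was not tested.

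**Figure D2:**
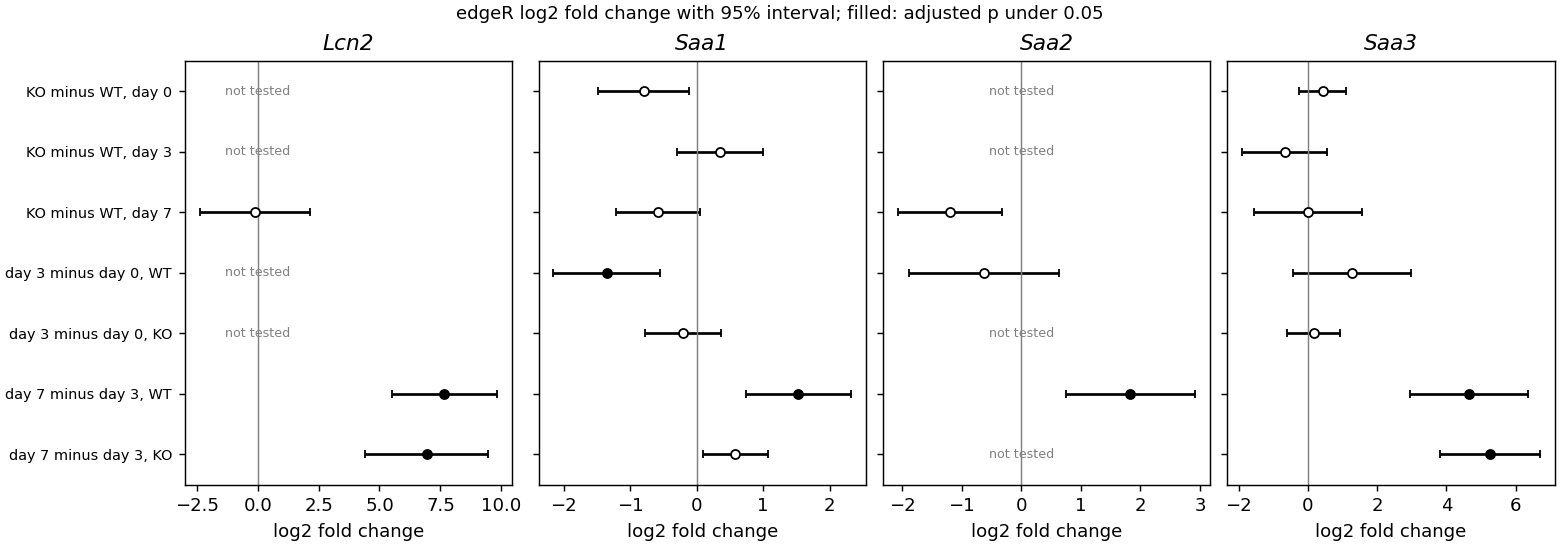
Log2 fold change of each member in 7 comparisons (edgeR), with 95% intervals; filled points have an adjusted p under 0.05. Lcn2 and Saa3 are far to the right only in the 2 comparisons of day 7 with day 3, and every KO against WT point is open.

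Set against day 0, the day 7 levels of Lcn2 and Saa3 were higher in both genotypes and that of Saa1 was not called. Saa3 changed by 5.86 (SE 0.9, adjusted p = 0.000125) in WT and 5.41 (SE 0.94, adjusted p = 0.000286) in KO on the log2 scale. The edgeR log2 fold change of Lcn2 was 7.5 (SE 1.5, adjusted p = 0.000981) in WT and 8.2 (SE 1.9, adjusted p = 0.00277) in KO. Without the library labelled d7_KO_420, which holds 5469 of the 7212 Lcn2 counts of KO day 7, the KO change was 6.04. Summed over libraries, the Lcn2 counts gave ratios of 183 (95% counting interval 111 to 327) in WT and 297 (127 to 915) in KO. These intervals leave out the spread between animals. Saa1 changed by 0.18 (SE 0.34, 95% interval -0.56 to 0.92) in WT and by 0.38 (SE 0.29, 95% interval -0.24 to 1.01) in KO. In these comparisons 56.9% of 17428 genes were called in WT and 54.6% of 16367 in KO, and they share their day 0 libraries with those of day 3.

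Saa2 was called lower on day 7 than on day 0 in KO, by a log2 fold change of -2.09 (SE 0.73, adjusted p = 0.0258). This rested on d0_KO_60, the library with raised Apoa1 and Fabp6. Without it the change was -0.70 (adjusted p = 0.397). In WT, Saa2 changed by 1.23 (SE 0.53, adjusted p = 0.063), which did not pass. It was called without d7_WT_370 (1.40, adjusted p = 0.015) and with no filter on low counts (1.32, adjusted p = 0.0497).

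The make-up of what these genes contribute shifted on day 7. Of the summed CPM per kilobase of the 4 members, Saa1 made up 97.2 to 99.7% in every library of days 0 and 3. On day 7 its share ranged from 59.6 to 95.9% in WT, with a median of 93.1%, and from 62.1 to 98.2% in KO, with a median of 83.1%. Saa3 took most of the rest, up to 36.1% in d7_WT_419 and 32.6% in the library labelled d7_KO_420. Lcn2 stayed at or under 5.2% in every library, and Saa4 was at 0 to 18 counts throughout. The Lcn2 shares are low estimates, since they use its counted exon model of 2623 bases and not its coding transcript of 915 bases.

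No member that could be tested was called between KO and WT on any day. On day 7, Lcn2 differed by -0.13 (KO minus WT, log2; SE 1.06, 95% interval -2.38 to 2.13, adjusted p = 0.97) and Saa3 by 0.01 (SE 0.73, 95% interval -1.55 to 1.57, adjusted p = 0.998). These intervals are wide: they include differences of more than 2 log2 units for Lcn2 either way. The value for Lcn2 was -2.25 without the library labelled d7_KO_420 and 0.60 without d7_WT_356, so its sign depended on which library was present. For Saa3 the range over the same fits was -0.64 to 0.50. Neutrophil markers overlapped as widely between genotypes on day 7, and 0 of 11 tested were called.

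Saa1 and Saa2 were lower in KO day 7 without passing the adjusted threshold. Mean Saa1 was 296 ± 89.2 CPM in KO and 442 ± 204 CPM in WT (SD, n = 7 each), a log2 difference of -0.58 (SE 0.29, 95% interval -1.21 to 0.05, adjusted p = 0.407). The 4 highest Saa1 values of day 7 were all WT, and the 3 lowest WT values lay within the KO range. Mean Saa2 was 0.276 ± 0.151 CPM in KO and 0.625 ± 0.36 CPM in WT, a log2 difference of -1.19 (SE 0.41, unadjusted p = 0.0111, adjusted p = 0.309). In that comparison 0.00642% of 15584 genes, a single gene, were called, and 0 of 4 members. DESeq2 also called 0 of the 4.

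Earlier days gave no member calls between genotypes either. On day 0 Saa1 was at -0.80 (SE 0.31, 95% interval -1.48 to -0.11, unadjusted p = 0.0259, adjusted p = 0.423) and Saa3 at 0.43 (SE 0.31, adjusted p = 0.645), with 0.0335% of 14944 genes called. On day 3 Saa1 was at 0.35 (SE 0.31, adjusted p = 0.731) and Saa3 at -0.68 (SE 0.58, adjusted p = 0.724), with 0.00647% of 15461 genes called. The day 3 value for Saa3 was -0.03 without d3_WT_381. Lcn2 and Saa2 were below the filter on low counts on both days. Their summed counts on day 3 were 68 in KO and 44 in WT for Lcn2, a ratio of 1.45 (95% counting interval 0.977 to 2.17), of which the library labelled d3_KO_345 holds 46.

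The test of whether the rise from day 3 to day 7 differed between genotypes called none of 16371 genes, a share of 0%, with edgeR, while 440 genes had an unadjusted p under 0.05 and DESeq2 also called 0. Saa1 came closest among the members, with a difference of -0.92 (KO minus WT, log2; SE 0.45, 95% interval -1.84 to -0.01, unadjusted p = 0.0485, adjusted p = 1). The difference was -0.71 (SE 1.67) for Lcn2, -0.82 (SE 0.64) for Saa2 and 0.61 (SE 1.0) for Saa3. So although Saa1 was called between days 3 and 7 in WT and not in KO, the changes themselves were not shown to differ.

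Across the 14 day 7 libraries the members fell into 2 pairs, Lcn2 with Saa3 and Saa1 with Saa2. Log2 CPM of Lcn2 and Saa3 had a Pearson r of 0.922 (permutation p = 1e-05, the smallest that 100000 permutations give, adjusted 0.0001 over 20 relations) and a Spearman rho of 0.873 (permutation p = 0.00012, adjusted 0.0012). Within genotypes r was 0.942 in WT and 0.919 in KO (n = 7 each), and without d7_KO_420 and d7_WT_356, the extremes in Lcn2, it was 0.879. Saa1 and Saa2 had r = 0.853 (permutation p = 0.00018, adjusted 0.0012) and rho = 0.85 (permutation p = 0.00027, adjusted 0.0016). Their r was 0.886 in WT, 0.726 in KO and 0.838 without d7_KO_366 and d7_WT_431. Saa2 had only 8 to 56 counts in these libraries and shares stretches of read length with Saa1. The part of misplaced Saa1 reads in this relation was not tested, so the 2 genes may not have been measured separately. The other 4 member pairs had r between 0.237 and 0.458 and did not pass (adjusted permutation p of 0.176 to 0.519).

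On day 3 the 3 amyloid genes varied together, and Lcn2 was too low to be placed with them or apart from them. Over 15 libraries Saa1 and Saa3 had r = 0.801 (permutation p = 0.00045, adjusted 0.0015; rho = 0.725, permutation p = 0.00334, adjusted 0.0111), with 0.962 in WT and 0.592 in KO, and 0.723 without d3_WT_353 and d3_WT_352. Saa2 and Saa3 had r = 0.81 (permutation p = 0.00032, adjusted 0.00148; rho = 0.729, permutation p = 0.00281, adjusted 0.0111), with 0.857 in WT, 0.598 in KO and 0.636 without d3_WT_353 and d3_WT_381. For Saa1 and Saa2 r was 0.701 (permutation p = 0.004, adjusted 0.0114; rho = 0.579, permutation p = 0.0267, adjusted 0.0707), with 0.923 in WT, 0.399 in KO and 0.454 without d3_WT_353 and d3_WT_352. That last pair rests on the 2 lowest libraries. Saa2 had 1 to 18 counts in the day 3 libraries, and the part of misplaced Saa1 reads in its relations was not tested. Lcn2 had r between -0.196 and 0.0118 with each of the other 3 (adjusted permutation p of 0.568 to 0.966). With 0 to 14 counts in WT and 1 to 46 in KO it was below the filter on low counts. These values therefore do not show whether it varied separately.

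Lcn2 and Saa3 also followed the neutrophil markers on day 7. In bulk samples such as these, more cells of a type and more RNA per cell cannot be told apart. The sum of 14 neutrophil markers was 12.5 to 48.8 CPM in WT day 3 and 156 to 1348 CPM in WT day 7, and 18.3 to 181 CPM in KO day 3 and 191 to 2185 CPM in KO day 7. Before day 7 this sum was mostly Ly6g and Itgam, which made up 95.4 to 97.9% of it in WT day 3 and 77.7 to 98.2% in KO day 3. Ly6g was at 26.5 CPM on average in WT day 0, 23.4 CPM in WT day 3 and 163 CPM in WT day 7. The other 12 markers summed to 0.373 to 1.67 CPM in WT day 3 and 90.6 to 949 CPM in WT day 7. In KO they were at 0.34 to 40.4 CPM and 53.4 to 1706 CPM. Of the 14 neutrophil markers, 10 were tested, and all 10 were called higher on day 7 in each genotype. Markers near 0 on day 3 could be tested only through their day 7 counts, so this number is a description. Mpo and Elane, granule genes of immature neutrophils, had at most 3 counts in any day 7 library. Other granule genes of the list went the other way. Ngp, Camp and Ltf reached up to 99.5, 3.76 and 40.3 CPM in WT day 7, and 188, 7.45 and 56 CPM in KO day 7. Macrophage markers were called higher in 8 of 8 in WT and 7 of 8 in KO, and their sum was 12.4 to 19.5 CPM in WT day 3 and 37 to 155 CPM in WT day 7. It was 11.4 to 93.1 CPM in KO day 3 and 45.7 to 390 CPM in KO day 7. Of the 8 epithelial markers, 0 were called in WT and 1, Krt18, was called lower in KO.

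The neutrophil marker sum had r = 0.948 with Lcn2 over the 14 day 7 libraries (permutation p = 1e-05, adjusted 0.0001; rho = 0.912, permutation p = 3e-05, adjusted 0.0006), with 0.986 in WT and 0.924 in KO. With Saa3 it had r = 0.817 (permutation p = 0.00037, adjusted 0.00148; rho = 0.842, permutation p = 0.00032, adjusted 0.0016), with 0.94 in WT and 0.723 in KO. With Saa1 r was 0.246 and with Saa2 0.496 (adjusted permutation p = 0.519 and 0.144). Leaving out d7_KO_420 and d7_WT_356, the extremes in the marker sum, gave 0.891 for Lcn2, 0.691 for Saa3, -0.0274 for Saa1 and 0.205 for Saa2. With the 12 markers other than Ly6g and Itgam, r was 0.955 for Lcn2 and 0.846 for Saa3 (adjusted permutation p = 0.0001 and 0.000667). The part of neutrophils in the rise of Lcn2 and Saa3 was not tested.

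3 libraries, d7_WT_356, d7_WT_419 and d7_KO_420, stood apart with 66.8 to 146 CPM of Lcn2 and 1173 to 2185 CPM of neutrophil markers, so the relations were also computed over the other 11. Lcn2 and Saa3 then had r = 0.856 (adjusted permutation p = 0.00375), Saa1 and Saa2 0.889 (adjusted permutation p = 0.0028), and Lcn2 and the neutrophil sum 0.787 (adjusted permutation p = 0.0149). The relation of Saa3 to the neutrophil sum no longer passed, at r = 0.573 (adjusted permutation p = 0.145). On day 3, the relation of Lcn2 to the neutrophil sum (r = 0.69, adjusted permutation p = 0.0167) rested on the library labelled d3_KO_345 and was 0.384 (adjusted permutation p = 0.27) without it. With the 12 other markers in place of the sum dominated by Ly6g, r on day 3 was 0.839 (adjusted permutation p = 0.00107), and 0.663 (adjusted permutation p = 0.021) without that library.

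**Figure D3:**
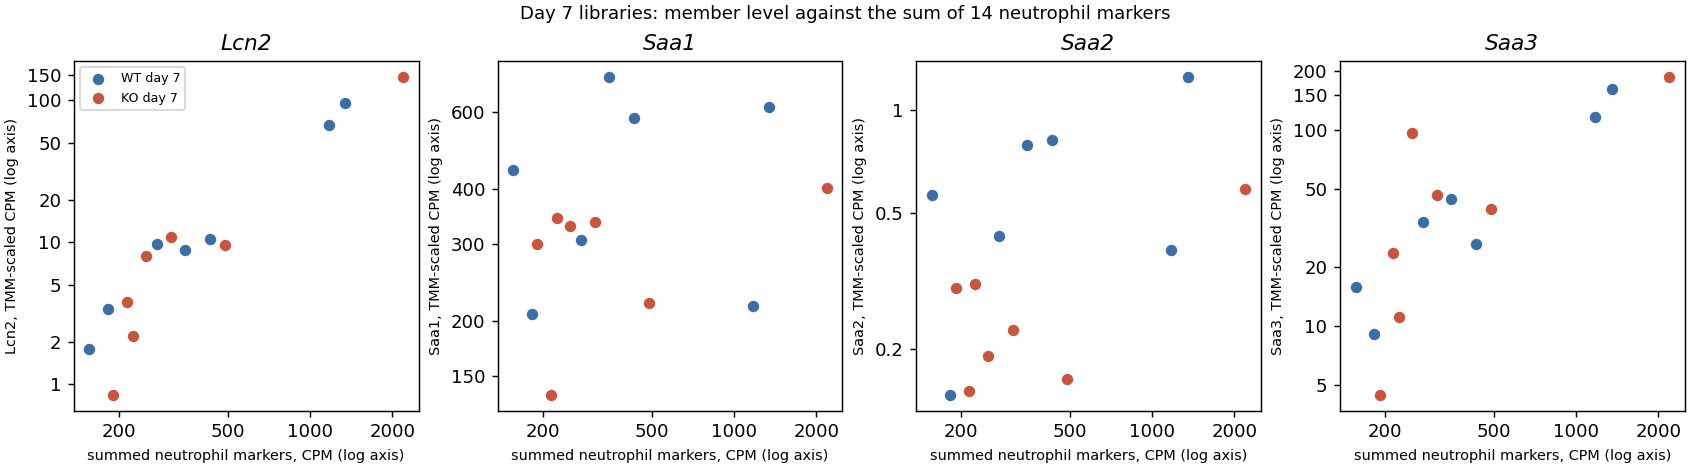
Level of each member (TMM-scaled CPM, log axis) against the summed CPM of 14 neutrophil markers (log axis) in the 14 day 7 libraries, by genotype. Lcn2 and Saa3 climb with the marker sum (r = 0.948 and 0.817), while Saa1 does not follow it (r = 0.246), and the 3 libraries with 1173 to 2185 CPM of markers stand apart on the right.

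The genes whose day 7 pattern was most like that of each member differed between the members. Among 10660 genes, ranked by Spearman rho over the 14 libraries and given as a description, Lcn2 was followed most closely by Asap1 (0.956), Mmp8 (0.925), S100a8 (0.908), Plat (0.903) and Kctd18 (0.895). Mmp8 and S100a8 are neutrophil genes and are in the marker list above. Saa3 was nearest to Chil3 (0.93), a chitinase-like protein of myeloid cells, with Slc3a1 (0.916), S100a8 (0.912) and Mmp8 (0.912) also near. Saa1 was nearest to AA467197 (0.938), Tmem251, BC029214, Vamp8 and Mdp1, and Saa2 to Cyp2d9 (0.952), Mapk13, Vps16, Fuca1 and Gm9892. No gene among the 5 nearest to Lcn2 was among the 5 nearest to Saa1 or Saa2, and those of Saa1 and Saa2 shared none either. With 5 of 10660 genes per member, an absent overlap does not tell the members apart.

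Transcripts of many genes linked to the members changed in the same interval, by amounts that differed between roles. Of a list of 64 genes in 6 roles, 55 were tested between day 3 and day 7 in WT, where 30 were called higher and 2 lower, and 57 in KO, where 27 were called higher and 1 lower. Over all genes tested, 10.6% were called higher in WT and 10.5% in KO, and the counts by role are read against these shares. The median log2 fold change of those tested was 0.73 in WT and 0.79 in KO, against 0.01 and -0.01 over all genes. By role it was 4.12 in WT and 2.3 in KO for cytokines, and 2.77 and 2.3 for other products. It was 0.62 and 0.82 for receptors or partners of the products, 0.21 and 0.24 for cytokine receptors, and 0.25 and 0.31 for transducers. The list was chosen with earlier results of these data known, and genes near 0 on day 3 were tested only through day 7. The counts are therefore a description. 4 genes of the list, S100a8, S100a9, Ltf and Mmp9, are also neutrophil markers. The KO values rest in part on the library labelled d3_KO_345, in which several of these genes were far above the other KO day 3 libraries. Without it 32 were called higher and 2 lower of 55 tested in KO.

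Of 9 listed cytokines, the 4 tested in WT were called higher, and 4 of the 6 tested in KO. Cytokines near 0 on day 3 could be tested only through their day 7 counts. Il1b, a myeloid cytokine, was at 2.14 ± 0.97 CPM in WT day 3 and 121 ± 115 CPM in WT day 7 (SD, n = 7 each), a log2 fold change of 5.76 in WT (adjusted p = 6.07e-05) and 3.47 in KO (adjusted p = 0.00293). In KO day 3 it was at 50.7 CPM in the library labelled d3_KO_345 and at 2.72 to 6.04 CPM in the others, and without that library the KO change was 4.85. Osm, oncostatin M, changed by 5.50 and 3.81 (adjusted p = 7.62e-05 and 0.00889; 5.85 in KO without that library), and Tnf by 1.92 and 1.89 (adjusted p = 0.000725 and 0.00178). Il6 was called in WT (2.74, adjusted p = 0.00409) and not in KO (2.05, adjusted p = 0.0506), where it was called without the library labelled d3_KO_345 (3.16, adjusted p = 0.00107). Ifng and Il10 were tested in KO and not in WT. Ifng was called there (2.55, adjusted p = 0.000742) and Il10 was not (1.98, adjusted p = 0.0873). Il22, which drives antimicrobial genes in epithelium, was at 0.333 ± 0.222 CPM in WT day 7 and 0.272 ± 0.136 CPM in KO day 7 (SD, n = 7 each), and was not tested between these days.

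Among receptors for these cytokines, that of oncostatin M changed most. Osmr rose by 2.93 in WT (adjusted p = 0.00039) and 2.91 in KO (adjusted p = 0.00132) on the log2 scale. In KO it rose from a low level. It was at 2.04 CPM in the library labelled d3_KO_345 and at 0.0685 to 0.671 CPM in the other KO day 3 libraries. KO day 7 libraries were at 1.42 to 6.26 CPM, the lowest being the one labelled d7_KO_420. Without the library labelled d3_KO_345 the KO change was 3.67. Of the 10 receptors, 3 were called higher in WT and 2 in KO, shares to be read against the 10.6% and 10.5% of all genes called higher in those comparisons. Ifngr1 (0.40) and Il17ra (0.35) were the others in WT and Il10rb (0.24) the other in KO. Among 14 transducers and regulators, 6 were called higher and 1 lower in WT, and 4 higher in KO. Of the C/EBP genes, Cebpd was at 29.7 ± 8.08 CPM in WT day 3 and 19.2 ± 5.23 CPM in WT day 7 (SD, n = 7 each). In KO it changed by -0.62 (adjusted p = 0.0704), and by -0.69 (adjusted p = 0.0437) without the library labelled d3_KO_345. Cebpb went the other way, from 8.72 to 11.6 CPM on average in WT and by 0.56 (adjusted p = 0.0633) in KO. Socs3, a feedback inhibitor of STAT3, changed by 1.62 (adjusted p = 0.00356) in WT and 1.39 (adjusted p = 0.00147) in KO, and Nfkbiz, a partner of NF-kB, by 0.73 (adjusted p = 0.00234) and 0.61 (adjusted p = 0.0441). In KO, Nfkbiz was not called without the library labelled d3_KO_345 (adjusted p = 0.0534) or without the one labelled d7_KO_420 (adjusted p = 0.0709). Nfkbia and Zc3h12a, which restrain the same pathways, were called in WT (0.77 and 0.73) and not in KO (0.79 and 0.61). Much of both KO values came from d7_KO_420, with Nfkbia at 1142 CPM and Zc3h12a at 378 CPM. No other KO day 7 library exceeded 350 CPM for Nfkbia or 119 CPM for Zc3h12a. Leaving d7_KO_420 out gave KO changes of 0.26 for Nfkbia and 0.08 for Zc3h12a, again not called.

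Among receptors and partners of the products, Fpr2, a receptor of serum amyloid A on myeloid cells, was at 0 to 0.0409 CPM in WT day 3 and 0.675 to 13.5 CPM in WT day 7. In KO it was at 0 to 0.603 CPM and 0.624 to 7.77 CPM, and it was called higher in both genotypes (adjusted p = 8.16e-05 and 0.000195). Mmp9, whose protein binds lipocalin 2, changed by 6.68 in WT and 4.25 in KO (adjusted p = 0.000178 and 0.00867), and its KO change was 6.95 without the library labelled d3_KO_345. Tlr2 changed by 1.01 and 1.13 (adjusted p = 0.000651 and 0.00016). Of this role, 1 gene was called lower in each genotype. Slc22a17, a lipocalin 2 receptor, was called lower in KO (-0.88, adjusted p = 0.0427; adjusted p = 0.0652 without the library labelled d7_KO_420), with -0.82 (adjusted p = 0.0664) in WT. Scarb1, a receptor of high-density lipoprotein that also binds serum amyloid A, was called lower in WT (-0.34, adjusted p = 0.0241), with -0.10 (adjusted p = 0.579) in KO.

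The other acute phase and antimicrobial products were called higher in 14 of 18 tested in each genotype, and none was called lower. The calprotectin subunits S100a8 and S100a9 changed by 9.82 and 9.50 in WT and by 6.73 and 6.29 in KO. Hp, haptoglobin, changed by 8.10 in WT and 4.99 in KO, and Ltf, lactotransferrin, by 5.17 and 5.63. In KO day 3, S100a8, S100a9 and Hp were highest in the library labelled d3_KO_345. S100a8 was at 6.09 CPM there and at 0 to 0.47 CPM in the other KO day 3 libraries, and Hp at 3.47 CPM against 0.0399 to 0.404 CPM. Without that library the KO changes were 9.63 for S100a8, 9.05 for S100a9 and 6.80 for Hp. Without the library labelled d7_KO_420, where S100a8 was at 513 CPM against at most 59 CPM in the other KO day 7 libraries, they were 5.13, 4.86 and 4.18. No gene of the list was called between KO and WT on day 0, 3 or 7, of 43, 49 and 58 tested, or in the test of the genotype difference in the change from day 3 to day 7, of 58.

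**Figure D4:**
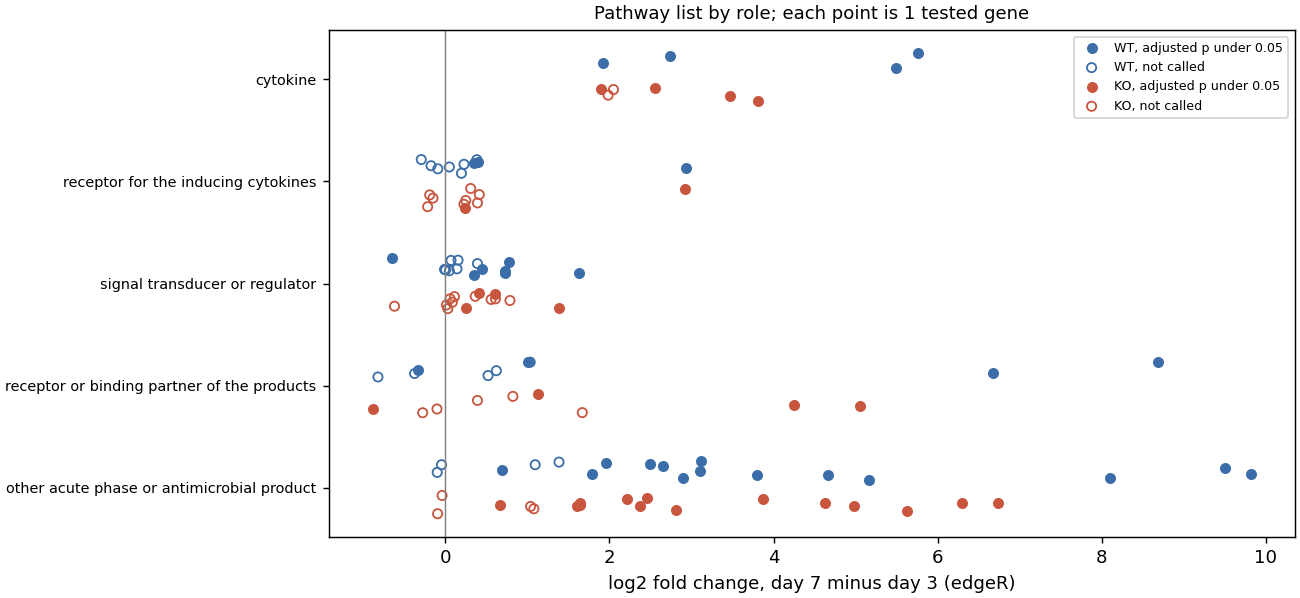
Log2 fold change from day 3 to day 7 (edgeR) of each tested gene of the pathway list, by role, with WT in blue and KO in red; filled points have an adjusted p under 0.05. Cytokines and products lie mostly to the right of 0, while receptors for the inducing cytokines and signal transducers lie near 0 apart from Osmr and Socs3.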

How the data were processed

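For each of 38 libraries, 2 lanes of whole-number gene counts were deposited, with no normalisation. Per the file headers, the authors made them with featureCounts 1.6.2 on read pairs with strand ignored and no option for reads mapping to several places. Per the submitters' processing notes, Trim Galore, STAR, featureCounts 1.5.2 and GRCm38 were used. Per the labels' protocols, the kit was stranded and reads were 50 bases long. Lanes were summed. Each library is a separate animal by its number. The members and lists were chosen with earlier results of these data known.

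Groups were compared with the edgeR 4.0.16 quasi-likelihood test in R 4.3.3 (TMM scaling, expression filter by group, compared groups alone). A gene was called when its p, adjusted over all genes tested (Benjamini-Hochberg), was under 0.05. SE was derived from each fold change and the F value of its test. Correlations used log2 CPM (prior count 2) and two-sided permutation tests with 100000 permutations, adjusted over 20 relations. Intervals are 95% and cover counting error only where counts are named. All members were named. From each role of the pathway list up to 4 genes called in either genotype were named, by their change in WT, and for each member the 5 genes of highest Spearman rho, of which 1 is not reported here. Genes of the cytokine and receptor or partner roles could be named with their level. Cebpb and Cebpd were named after seeing the data. Promoters came from the RefSeq GRCm38.p6 table, in which all 4 members matched, and transcripts from GENCODE M21. Alternatives were DESeq2 1.42.0 size factors or Wald test, other filters, robust dispersions, lane 1 alone, all 38 libraries in 1 fit, a prior count of 0.5 and leaving out each library. On simulated counts for WT day 7 against day 3 (15370 genes), 97.9% of genes changed by 2 on the log2 scale and 0.0264% of unchanged genes were called.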

Additional observations from a re-analysis of the deposited data

Results flagged for a closer look

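In 4 of 24 sets of libraries examined (4 members in 6 groups), 1 library lay further from the rest than the Dixon limit for its group size allows. Chance flags about 1 in 20 such sets. Lcn2 in KO day 3 was at 0.956 CPM in the library labelled d3_KO_345, against at most 0.201 CPM in the others. Lcn2 in KO day 7 was at 146 CPM in the library labelled d7_KO_420, against at most 10.8 CPM in the others. Saa2 in KO day 7 was at 0.587 CPM in the library labelled d7_KO_420, which had the highest neutrophil marker sum (2185 CPM), and at most 0.311 CPM in the others. Saa2 in WT day 0 was low at 0.121 CPM in d0_WT_31, from 2 counts, against 0.283 to 0.308 CPM in the others.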

How the results depend on the processing

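No paired analysis was possible because the replicate numbers are animal numbers that no 2 groups share. The count of members called stayed within 1.5 times its value under every alternative but 2, not counting those that leave out a library. From day 0 to day 3 in KO it became 1 with no filter on low counts and 1 in the fit of all 38 libraries, where Saa2 was tested and called lower (-3.02 and -3.11). Of the 61 Saa2 counts of KO day 0, 41 are in d0_KO_60 and 12 in d0_KO_32. Those fits called 10557 of 29028 and 8442 of 19144 genes in that comparison. No member was called between genotypes under any alternative run, or with any library left out. Without 1 library at a time, members called ranged from 3 to 4 in WT and 2 to 3 in KO for day 7 against day 3, and from 2 to 3 in each genotype for day 7 against day 0. Saa3 between genotypes on day 7 reversed from 0.01 to -0.0091 with a mean CPM of at least 1 and to -0.00081 with lane 1 alone, and ranged from -0.64 to 0.50 without 1 library. Lcn2 there ranged from -2.25 to 0.60, and its interaction with day from -2.82 to 0.61, with that of Saa3 from -0.038 to 1.11. Saa1 ranged from -0.0058 to 0.37 for day 7 against day 0 in WT and from -0.36 to 0.049 for day 3 against day 0 in KO. On day 3, r of Lcn2 and Saa3 was -0.0832 with a prior count of 0.5 and -0.00905 without the library labelled d3_KO_345, and r of Lcn2 and Saa2 was 0.0183 without it. Without it, Saa1 passed with the neutrophil sum (r = 0.662; 0.218 with Ly6g and Itgam left out of the sum), and on day 7 Saa2 did so with lane 1 alone (r = 0.618). With Ly6g and Itgam left out of the sum, its r with Saa2 on day 3 was -0.164. The causes were not tested. Leaving out these genes, that library, the library labelled d7_KO_420 in the pathway list, or the 3 libraries highest in Lcn2 was chosen after seeing the data. Genes called between genotypes over all genes went from 5 to 177 (DESeq2) or 52 (no filter) on day 0, from 1 to 2 (DESeq2) on day 3, and from 1 to 83 (DESeq2) or 38 (all libraries) on day 7. Depth limits Lcn2 on days 0 and 3 and Saa2 throughout.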
